A study of Mus musculus with 6 samples.

Results

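Antioxidant and glutathione enzymes were followed in mouse skin as a set of 43 genes listed by symbol. A gene was measured where a probe carried its symbol as the only gene name, which held for 41 of 43, each with 1 probe. The table held 22879 rows in all. Prdx5 and Prdx6 had no such probe and were not analysed here. The list was proposed with the ratios of these same arrays known, so the members' ratios are given as a description, and no statement rests on how many of them stood apart.

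The samples were skin of 3 mice carrying the LynDN transgene and of 3 wild-type (WT) mice. The transgene, LynDeltaN in the title, concerns the Src family tyrosine kinase Lyn. LynDN mouse 1 was paired with WT mouse 1, LynDN mouse 2 with WT mouse 3 and LynDN mouse 3 with WT mouse 2. Each pair was hybridised on 2 dual-dye arrays with the Cy3 and Cy5 dyes exchanged, which gave 6 arrays. The sources used here give no strain, age, sex, skin site or treatment and do not say which promoter drives the transgene.

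Each value is a deposited ratio between the genotypes, read as log2, so that a ratio of 1 stands for a 2-fold difference. Neither the numerator nor the log base is stated, so positive and negative mark opposite sides only, and every sign below would turn if the numerator were the other genotype. As an anchor, the alarmin genes S100a9 and S100a8 had mean ratios of 5.54 ± 0.16 and 4.61 ± 0.12 (SD, n = 3), on the positive side. No probe was named Lyn, so the targeted gene could not be checked, and ratios alone do not show whether a tissue marker was present. Pair 1 stood apart from the others. The Y-linked gene Eif2s3y had a ratio of 3.50 there, against 0.03 in pair 3 and -0.0040 in pair 2. The Y-linked Kdm5d had 1.24, -0.05 and 0.13 in pairs 1, 2 and 3, and the X-linked Xist had -1.06, -0.09 and -0.14. In pair 1 a difference of sex therefore cannot be told apart from genotype, and its part in the ratios was not tested. Over all rows Pearson's r was 0.745 between pairs 2 and 3, 0.350 between pairs 1 and 2 and 0.386 between pairs 1 and 3. Between the 2 arrays of a swap it was 0.024 in pair 1, 0.463 in pair 2 and 0.462 in pair 3. Rows are not independent replicates. The number of arrays limits the precision.

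Superoxide dismutases turn superoxide into hydrogen peroxide, which catalase, glutathione peroxidases and peroxiredoxins then remove. Glutathione and thioredoxin supply the electrons and are kept reduced by glutathione reductase and thioredoxin reductases, and glutathione transferases join glutathione to reactive lipids and foreign compounds. Many of these genes are targets of the transcription factor NRF2, which KEAP1 holds in check, and the system is known in skin for protection against ultraviolet light, oxygen and wounding.

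The members held a pair of genes with large positive ratios, a few of moderate size on either side, and a majority near 0. Gsta4 and Lpo differed by 8.42-fold and 4.30-fold between the genotypes. On the positive side followed Gpx1, at 1.67-fold, and Gsto1, at 1.42-fold, both with a pair 1 value near 0. For Gpx1 that value averages arrays of opposite sign, at -0.59 and 0.51. On the negative side Cat led at 1.60-fold. Of the 41 members, 32 had an absolute mean ratio under 0.3, as had 21458 of all 22879 rows. The members' median was -0.05, against -0.01 over all rows. By pair the members' median was -0.02 in pair 1, -0.10 in pair 2 and -0.0052 in pair 3. A mean ratio of at least 2-fold was reached by Gsta4 and Lpo, 2 of 41 members, and by 0.599% of all rows.

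The plot of the 41 members by array shows how narrow most of them were.

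**Figure D1:**
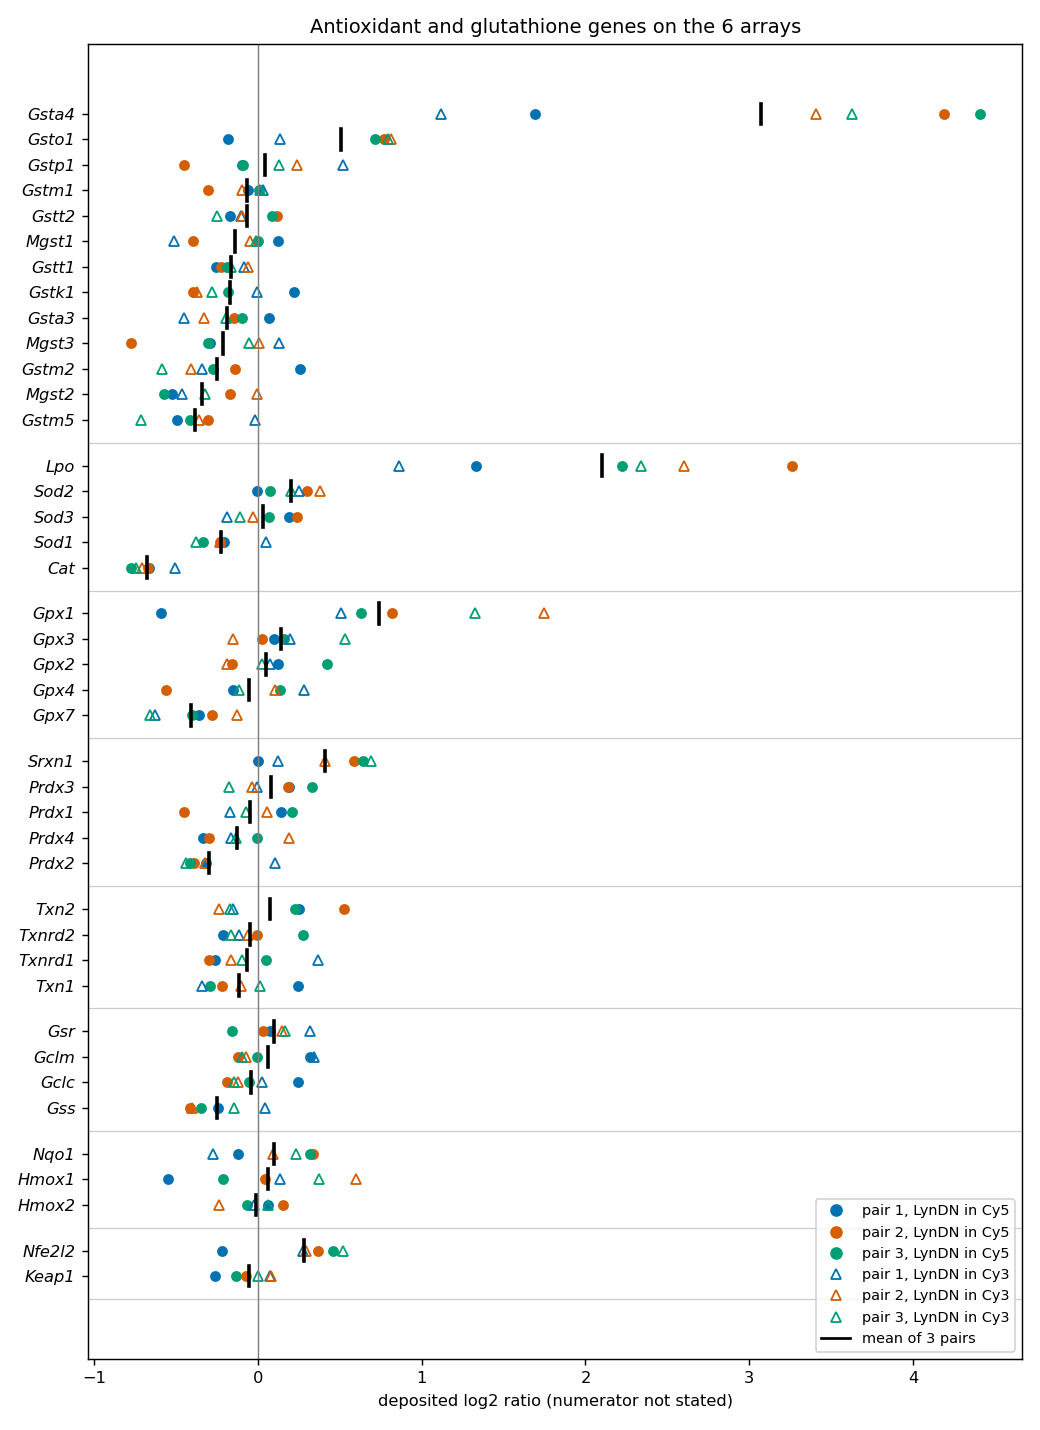
Deposited log2 ratio (x axis) of each of the 41 measured members on the 6 arrays, grouped by role. Filled circles are arrays with LynDN in Cy5, open triangles arrays with LynDN in Cy3, colours are mouse pairs and black bars the mean of 3 pairs. Gsta4 and Lpo lie above 0.8 on every array, and Cat lies between -0.78 and -0.51.

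The pair values of each row were tested against 0 with limma over the whole table, and 0 of 41 members passed at an adjusted p of 0.05, where 0.0175% of all rows passed. The smallest adjusted p of a member was 0.123, for Cat. At an unadjusted p under 0.05 there were 7 positive and 11 negative members, against 12.3% of all rows. In a fit of all 6 arrays with a term for dye and a random block for the pair of mice, Gsta4, Lpo and Cat passed, 3 of 41, where 1.06% of all rows passed. For genes that vary mostly between pairs, the block fit counts the 2 arrays of a swap nearly as separate mice. Gsta4, at 1.41, 3.80 and 4.02 in pairs 1, 2 and 3, is such a gene. Without the 1 array whose label gives another day, that fit called 1 member, Cat. Of the members, 8 had 1 sign on all 6 arrays, where 8.03% of all rows did. Gsta4, Lpo and Srxn1 were the 3 positive ones (3.72% of all rows), and Gstm5, Gstt1, Mgst2, Cat and Gpx7 the 5 negative ones (4.31%). All but Gstt1 also had an absolute mean of at least 0.3, 7 of 41 members, as did 2.78% of all rows.

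Among the glutathione transferases, 10 of 13 had negative mean ratios, as had 12844 of all 22879 rows, and the family's median was -0.16. Gsta4, an alpha-class enzyme known for conjugating hydroxynonenal, a product of lipid peroxidation, was the exception in size. It had ratios of 1.69, 4.19 and 4.41 on the arrays of pairs 1, 2 and 3 with LynDN in Cy5, and of 1.12, 3.41 and 3.62 on those with LynDN in Cy3. All 6 values were positive, and both arrays of pair 1 lay below those of the other pairs. The mean over pairs was 3.07 ± 1.45 (SD, n = 3), 13th of 22879 rows by absolute size. The other alpha-class genes did not share this: Gsta3 had a mean of -0.19 ± 0.05, Gsta1, the next coding gene to Gsta4 in RefSeq's mouse gene order, had -0.11 ± 0.15, and Gsta2 had 0.08 ± 0.21 (SD, n = 3). Alpha-class genes are close relatives whose probes can cross-hybridise, so single values are less certain than for genes without near copies.

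Gsto1, an omega-class enzyme that reduces dehydroascorbate, was positive in pairs 2 and 3 alone. Its ratios were -0.18, 0.77 and 0.72 with LynDN in Cy5 and 0.13, 0.81 and 0.80 with LynDN in Cy3, in pairs 1, 2 and 3. The mean of 0.51 ± 0.46 (SD, n = 3) thus joins a pair at -0.02 with pairs at 0.79 and 0.76.

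The transferase genes Gstm5 and Mgst2 were negative on all 6 arrays. The mu-class gene Gstm5 had -0.49, -0.30 and -0.42 with LynDN in Cy5 and -0.02, -0.36 and -0.71 with LynDN in Cy3, with a mean of -0.38 ± 0.16 (SD, n = 3). Mgst2, a microsomal enzyme that can also form leukotriene C4, had -0.53, -0.17 and -0.57 with LynDN in Cy5 and -0.46, -0.0036 and -0.32 with LynDN in Cy3, with a mean of -0.34 ± 0.22 (SD, n = 3). In both genes 1 array lay close to 0. Gstt1, of the theta class, was also negative on 6 arrays, at -0.16 ± 0.02 (SD, n = 3). The remaining transferases had means from -0.25 for Gstm2 to 0.04 for Gstp1, a pi-class enzyme abundant in many epithelia. The mu-class neighbours Gstm1 and Gstm2 had -0.07 ± 0.11 and -0.25 ± 0.20 (SD, n = 3 each), and their difference from Gstm5 was not tested. In pairs 1, 2 and 3 the ratios were -0.02, -0.20 and 0.0082 for Gstm1 and -0.04, -0.28 and -0.43 for Gstm2. Gsta3, at -0.19, -0.24 and -0.14, and Gstt1, at -0.17, -0.14 and -0.18, were the steadiest members of the family. The pairs of Gstp1 (0.21, -0.11 and 0.02), Gstk1 (0.11, -0.38 and -0.23) and Gstt2 (-0.14, 0.0088 and -0.08) lay on both sides of 0. The microsomal genes Mgst1 (-0.19, -0.22 and -0.0052) and Mgst3 (-0.08, -0.39 and -0.18) were negative in each pair.

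Lpo encodes lactoperoxidase, a secreted heme peroxidase that uses hydrogen peroxide to make antimicrobial oxidants. Its ratios were 1.33, 3.26 and 2.22 on the arrays of pairs 1, 2 and 3 with LynDN in Cy5, and 0.86, 2.60 and 2.34 on those with LynDN in Cy3. All were positive, with pair 1 lowest, and the mean was 2.10 ± 0.93 (SD, n = 3), 37th of all rows by absolute size. Mpo, 1 step from Lpo in RefSeq's mouse order of coding genes and the peroxidase of neutrophils, had a mean of 0.16 ± 0.25. Epx, the eosinophil peroxidase 2 steps from Lpo, had -0.08 ± 0.12 (SD, n = 3 each). Neutrophil markers were positive in 11 of 11 measured genes, against 10035 of all 22879 rows. Their list medians were 0.06, 0.52 and 0.44 in pairs 1, 2 and 3. With the random block 1 of 11 passed, and on the pair values 0 of 11. In bulk skin fewer cells of a type and less RNA per cell cannot be told apart, and the part of these cells in the Lpo ratio was not tested.

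Cat, the catalase that splits hydrogen peroxide in peroxisomes, gave the narrowest large ratio of the members. It had -0.67, -0.67 and -0.78 with LynDN in Cy5 and -0.51, -0.71 and -0.75 with LynDN in Cy3, in pairs 1, 2 and 3. Every array was negative, the 3 pairs lay at -0.59, -0.69 and -0.76, and the mean was -0.68 ± 0.09 (SD, n = 3). By p it stood 14th of 22879 rows. Red blood cells are rich in catalase, and 4 of 5 measured erythroid markers were negative, with list medians of -0.07, -0.80 and -0.25 in pairs 1, 2 and 3. Fat cells also express it, and 6 of 9 adipocyte markers were negative. Beside both lists, 12844 of all 22879 rows were negative. The adipocyte medians were 0.18, -0.36 and -0.09 in pairs 1, 2 and 3. Beside these medians Cat had -0.59, -0.69 and -0.76 in the same pairs, and the part of either cell type in its ratio was not tested.

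Other genes of the peroxisome did not lie as far to the negative side as Cat. Of 30 measured peroxisome genes, 20 had negative means, as had 12844 of all 22879 rows. The list's lowest mean was -0.26 and its median -0.05. On the positive side Nudt7, a coenzyme A hydrolase, reached 0.80 ± 0.60 (SD, n = 3), with a ratio of 0.11 in pair 1. With the random block 1 of 30 passed: Phyh, which starts the oxidation of branched fatty acids, was positive at 0.50 ± 0.18 (SD, n = 3; limma adjusted p = 0.0293). On the pair values 0 of 30 passed in limma, and 2 positive and 1 negative gene had an unadjusted p under 0.05, or 6.67% and 3.33%, against 5.92% and 6.41% of all rows.

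The superoxide dismutases had small ratios. Sod1, the cytosolic copper-zinc enzyme, had a mean of -0.22 ± 0.14 and was negative on 5 of 6 arrays. Sod2, the mitochondrial manganese enzyme, had 0.20 ± 0.12 and was positive on 5 of 6 arrays, and Sod3, the extracellular one, had 0.03 ± 0.07 (SD, n = 3 each). In pairs 1, 2 and 3 the ratios were -0.08, -0.23 and -0.36 for Sod1, 0.12, 0.34 and 0.14 for Sod2 and 0.00060, 0.11 and -0.02 for Sod3.

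Of the glutathione peroxidases, Gpx1 and Gpx7 lay on opposite sides. Gpx1, the cytosolic selenoenzyme that reduces hydrogen peroxide with glutathione, had -0.59, 0.82 and 0.63 with LynDN in Cy5 and 0.51, 1.75 and 1.33 with LynDN in Cy3, in pairs 1, 2 and 3. Both arrays of pairs 2 and 3 were positive while those of pair 1 disagreed in sign, and the mean was 0.74 ± 0.70 (SD, n = 3). The difference between dye orientations was a measure that the choice of members did not use, and it was tested with limma over all rows. Gpx1 was 1 of 41 members called, with a mean difference of -0.91 ± 0.20 (LynDN in Cy5 minus LynDN in Cy3; SD, n = 3; adjusted p = 0.0406), where 0.573% of all rows were called. This call was lost without any one of the 3 pairs, with quantile normalization and without variance moderation.

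Gpx7, a peroxidase of the endoplasmic reticulum, had -0.36, -0.28 and -0.40 with LynDN in Cy5 and -0.63, -0.13 and -0.66 with LynDN in Cy3. It was negative on every array, at a mean of -0.41 ± 0.18 (SD, n = 3). Gpx2, Gpx3 and Gpx4 had means of 0.05 ± 0.20, 0.14 ± 0.20 and -0.05 ± 0.15 (SD, n = 3 each), each with both signs among the arrays. The lowest pair value of each was that of pair 2, with 0.10, -0.17 and 0.22 for Gpx2, 0.15, -0.06 and 0.35 for Gpx3, and 0.06, -0.23 and 0.0075 for Gpx4 in pairs 1, 2 and 3. Gpx8, a relative of Gpx7 in the same compartment and not on the list of members, was negative on 6 of 6 arrays at -0.28 ± 0.02 (SD, n = 3) and passed with the random block (limma adjusted p = 0.0417).

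Peroxiredoxins reduce peroxides through a reactive cysteine, and sulfiredoxin, from Srxn1, repairs them when that cysteine is over-oxidised. Srxn1 had ratios of 0.00052, 0.59 and 0.64 with LynDN in Cy5 and 0.13, 0.41 and 0.69 with LynDN in Cy3, in pairs 1, 2 and 3. All 6 were positive, those of pair 1 lowest, and the mean was 0.41 ± 0.31 (SD, n = 3). Prdx2, a peroxiredoxin abundant in red blood cells, had -0.32, -0.39 and -0.42 with LynDN in Cy5 and 0.10, -0.32 and -0.44 with LynDN in Cy3. It was negative on 5 of 6 arrays, at -0.30 ± 0.17 (SD, n = 3), and the erythroid list named above moved to the same side in pairs 2 and 3, a relation that was not tested. Prdx1, Prdx3 and Prdx4 had means of -0.05 ± 0.14, 0.08 ± 0.01 and -0.12 ± 0.11 (SD, n = 3 each). In pairs 1, 2 and 3 Prdx1 had -0.01, -0.20 and 0.07, the mitochondrial Prdx3 had 0.09, 0.07 and 0.08, and Prdx4 of the endoplasmic reticulum had -0.25, -0.05 and -0.07.

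Genes of the thioredoxin system and of glutathione synthesis had absolute mean ratios under 0.3, with Gss farthest from 0. Txn1, Txn2, Txnrd1 and Txnrd2, the cytosolic and mitochondrial thioredoxins and their reductases, had means from -0.12 to 0.08. In pairs 1, 2 and 3 the ratios were -0.05, -0.16 and -0.14 for Txn1 and 0.05, 0.15 and 0.03 for Txn2. The reductases Txnrd1 (0.05, -0.23 and -0.02) and Txnrd2 (-0.16, -0.03 and 0.05) lay on both sides of 0. Gclc and Gclm, the subunits of the rate-limiting enzyme of glutathione synthesis, had -0.04 ± 0.15 and 0.06 ± 0.23, and Gss, which completes the tripeptide, had -0.25 ± 0.15 (SD, n = 3 each). By pair, Gclc had 0.13, -0.16 and -0.10, Gclm had 0.33, -0.10 and -0.05, and Gss had -0.10, -0.41 and -0.24, so both subunits of the rate-limiting enzyme were positive in pair 1 and negative in the others. Gsr, which recycles oxidised glutathione, had 0.07, 0.03 and -0.16 with LynDN in Cy5 and 0.32, 0.14 and 0.16 with LynDN in Cy3, a mean of 0.10 ± 0.10 (SD, n = 3).

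The regulators both had an absolute mean ratio under 0.3, with Keap1 nearer to 0 than Nfe2l2. Nfe2l2, which encodes NRF2, had -0.22, 0.37 and 0.46 with LynDN in Cy5 and 0.27, 0.29 and 0.52 with LynDN in Cy3, in pairs 1, 2 and 3. It was positive on 5 of 6 arrays, at 0.28 ± 0.23 (SD, n = 3). Keap1 had -0.26, -0.07 and -0.14 with LynDN in Cy5 and 0.07, 0.08 and -0.0012 with LynDN in Cy3, a mean of -0.05 ± 0.05 (SD, n = 3). Members widely used as readouts of NRF2 had means of 0.10 ± 0.26 for the quinone reductase gene Nqo1, 0.06 ± 0.26 for the heme oxygenase gene Hmox1 and -0.07 ± 0.15 for Txnrd1 (SD, n = 3 each). In pairs 1, 2 and 3 Nqo1 had -0.20, 0.21 and 0.28 and Hmox1 had -0.21, 0.32 and 0.08, both negative in pair 1 alone. Among the readouts, Srxn1 lay farthest from 0. Hmox2, the constitutive heme oxygenase gene, had 0.02, -0.04 and -0.0023.

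Promoter windows from RefSeq (GRCm38.p6; 250 bases before to 50 after each start) were found for 35 of 41 members. Gsta4, Gstt2, Sod3, Gclc, Gsr and Hmox1 had no window, so the member with the largest ratio was not searched. The windows were searched on both strands for TGACNNNGC, the core of the antioxidant response element that NRF2 binds. It occurred in 9 of 35 members, or 25.7%, and in 14.0% of all 27025 genes with a window. With TGAGNNNGC allowed too, added after seeing the data, 12 of 35 members and 30.8% of all genes held a match. The members that held the first form were Gsta3, Gstm5, Mgst1, Sod1, Prdx1, Srxn1, Txnrd1, Gclm and Nfe2l2, and their mean ratios ran from -0.38 for Gstm5 to 0.41 for Srxn1. The windows of Srxn1 and Gstm5 are shown because they belong to the members with matches farthest from 0 on either side, and those of Lpo and Cat because these genes had larger ratios and no match of either form. Capitals mark every match, 5′ to 3′ in the direction of the gene.
Srxn1, chr2:152105274-152105573, plus strand: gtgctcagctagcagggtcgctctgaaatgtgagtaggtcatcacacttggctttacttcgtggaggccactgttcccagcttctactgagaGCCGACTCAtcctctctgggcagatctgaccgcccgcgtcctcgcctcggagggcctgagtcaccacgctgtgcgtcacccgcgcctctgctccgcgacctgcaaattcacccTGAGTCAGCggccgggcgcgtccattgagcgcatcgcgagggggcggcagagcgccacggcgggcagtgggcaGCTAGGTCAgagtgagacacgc
Gstm5, chr3:107895604-107895903, plus strand: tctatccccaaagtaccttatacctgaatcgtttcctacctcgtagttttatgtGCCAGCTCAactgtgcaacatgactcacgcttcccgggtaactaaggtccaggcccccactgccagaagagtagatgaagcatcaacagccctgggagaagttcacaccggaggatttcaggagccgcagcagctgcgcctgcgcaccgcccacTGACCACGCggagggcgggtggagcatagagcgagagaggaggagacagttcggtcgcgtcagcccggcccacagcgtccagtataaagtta
Lpo, chr11:87826065-87826364, minus strand: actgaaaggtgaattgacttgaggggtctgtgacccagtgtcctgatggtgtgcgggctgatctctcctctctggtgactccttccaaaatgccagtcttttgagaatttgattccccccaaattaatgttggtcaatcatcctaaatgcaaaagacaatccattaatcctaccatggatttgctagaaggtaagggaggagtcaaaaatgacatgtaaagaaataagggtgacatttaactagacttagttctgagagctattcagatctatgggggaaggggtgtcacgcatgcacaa
Cat, chr2:103485104-103485403, minus strand: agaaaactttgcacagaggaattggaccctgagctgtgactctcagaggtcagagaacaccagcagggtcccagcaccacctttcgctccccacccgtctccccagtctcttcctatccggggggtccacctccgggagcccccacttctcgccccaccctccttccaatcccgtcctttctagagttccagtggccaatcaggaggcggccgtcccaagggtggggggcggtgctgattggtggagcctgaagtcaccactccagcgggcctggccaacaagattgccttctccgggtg
In Srxn1 the match that begins 45 bases before the start, TGAGTCAGC, also holds TGAGTCA, the letters of an AP-1 site, so the same bases match both motifs. A match is a run of letters and not a binding site, and the absence of one covers this window alone.

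Pairs 2 and 3 resembled each other with and without the genes of large ratio, while the correlations with pair 1 were lower without them. Across the 41 members, pairs 2 and 3 correlated at Pearson r = 0.966, pairs 1 and 2 at 0.815 and pairs 1 and 3 at 0.861. Without Gsta4 and Lpo these values were 0.854, 0.231 and 0.480. The pairs share a platform and normalization, and genes are not independent replicates. In 22 of 41 members all 3 pairs had 1 sign, as in 35.5% of all rows. In 20 members both pairs 2 and 3 lay farther from 0 than pair 1, that is 48.8%, against 42.3% of all rows. The plot of pair 1 against pairs 2 and 3 shows Gsta4 and Lpo well above the line of equal ratios and Cat close to it.

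**Figure D2:**
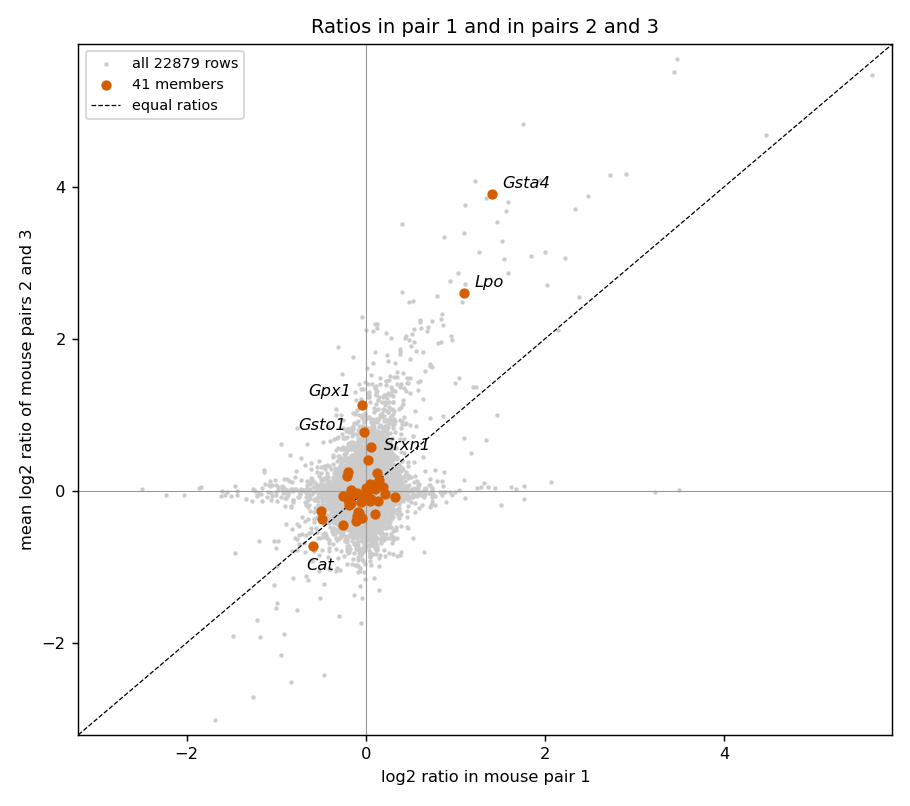
Log2 ratio in mouse pair 1 (x axis) against the mean of pairs 2 and 3 (y axis) for the 41 members (orange) and all 22879 rows (grey), with a dashed line of equal ratios. Gsta4 lies at 1.41 and 3.91 and Lpo at 1.10 and 2.61, while Gpx1 and Gsto1 lie near 0 in pair 1 alone. The pair 1 value of Gpx1 averages arrays at -0.59 and 0.51.

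Without pair 1 the limma fit on pair values called 7 of 41 members, where 4.88% of all rows were called. Gsta4, Lpo, Gpx1, Gsto1 and Srxn1 were called on the positive side, as were 3.22% of all rows, and Cat and Prdx2 on the negative side, as were 1.67%. The same fit called 0 of 41 without pair 2, where 0.00874% of all rows were called, and 0 of 41 without pair 3, where 0.0175% were.

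Dye differences were not confined to genes with small ratios. The largest among the members were -0.91 for Gpx1 and 0.72 for Gsta4, whose mean ratios were 0.74 and 3.07. Opposite signs in the 2 orientations arise only where the mean ratio is small beside the dye difference. In 15 of 41 members the means with LynDN in Cy5 and with LynDN in Cy3 had opposite signs. That is 36.6%, against 53.2% of all rows. Gsta4, Lpo and Cat had the same sign in both orientations, with means of 3.43, 2.27 and -0.70 with LynDN in Cy5 and of 2.72, 1.93 and -0.65 with LynDN in Cy3. Hmox1 was among the divided ones, with -0.24 in Cy5 and 0.37 in Cy3.

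**Figure D3:**
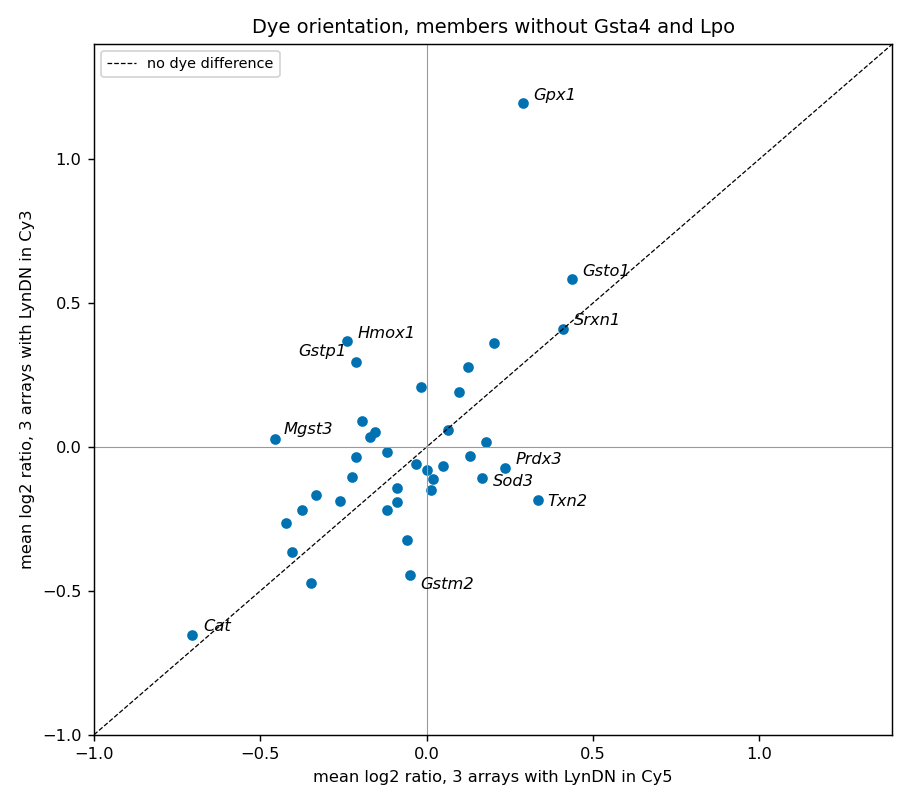
Mean log2 ratio over the 3 arrays with LynDN in Cy5 (x axis) and over the 3 arrays with LynDN in Cy3 (y axis) for 39 members, leaving out Gsta4 and Lpo, which lie beyond the axes. Points in the upper left and lower right have opposite signs in the 2 orientations, and Gpx1, at 0.29 and 1.19, lies farthest from the dashed line of no dye difference.

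Lists of related genes were read from the same fit. They held 144 measured genes of 163, and they were written with earlier results of these data known, among them that of Ces2f. On the pair values 0 of 144 passed in limma, and with the random block 7 passed, 4 positive and 3 negative, where 0.603% of all rows passed positive and 0.459% negative. Without the array of another labelled day 1 of these passed, Ces2f. The limit of the block fit given above holds for these calls too.

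Of 26 other glutathione genes, 12 were positive and 14 negative, with a median of -0.02, and the block called 1 on each side. Ptges, a glutathione-dependent synthase of prostaglandin E2, was positive on 6 of 6 arrays at 0.75 ± 0.41 (SD, n = 3; limma adjusted p = 0.0493 with the block), and Gpx8 is given above. Of 21 other NRF2 targets none passed either fit, and 4 positive and 1 negative had an unadjusted p under 0.05 on the pair values in limma, or 19.0% and 4.76%, against 5.92% and 6.41% of all rows. The smallest p values of this list belonged to the aldo-keto reductase gene Akr1b8, with 1.10 ± 0.71, and to the carbonyl reductase gene Cbr3, with 0.57 ± 0.38 (SD, n = 3 each). In pair 1 these genes had 0.27 and 0.13. The list's median was -0.03.

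Oxidant-producing enzymes were positive in 14 of 23 genes, as were 10035 of all 22879 rows. The list's median was 0.05, and 2 of its genes passed with the block, both positive. Duoxa1, which matures the hydrogen peroxide-making dual oxidase of epithelia, had 0.40 ± 0.07, and Maoa, a mitochondrial amine oxidase, had 0.40 ± 0.01 (SD, n = 3 each; limma adjusted p = 0.0237 and 0.0166 with the block). Both were positive on 6 of 6 arrays. Of 21 genes of thioredoxin, glutaredoxin and methionine sulfoxide repair none passed either fit, and 2 positive and 3 negative had an unadjusted p under 0.05 on the pair values in limma, or 9.52% and 14.3%, against 5.92% and 6.41% of all rows. Sesn1, a sestrin, had -0.22 ± 0.02 and Txnip, which binds thioredoxin, had 0.36 ± 0.18 (SD, n = 3 each).

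Among 24 other drug-metabolising enzymes, 17 were negative, as were 12844 of all 22879 rows, and the list's median was -0.08. The block called 2, both negative on 6 of 6 arrays: the carboxylesterase gene Ces2f at -0.80 ± 0.16 and the alcohol and retinol dehydrogenase gene Adh1 at -0.53 ± 0.08 (SD, n = 3 each; limma adjusted p = 0.00572 and 0.00916 with the block).

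**Figure D4:**
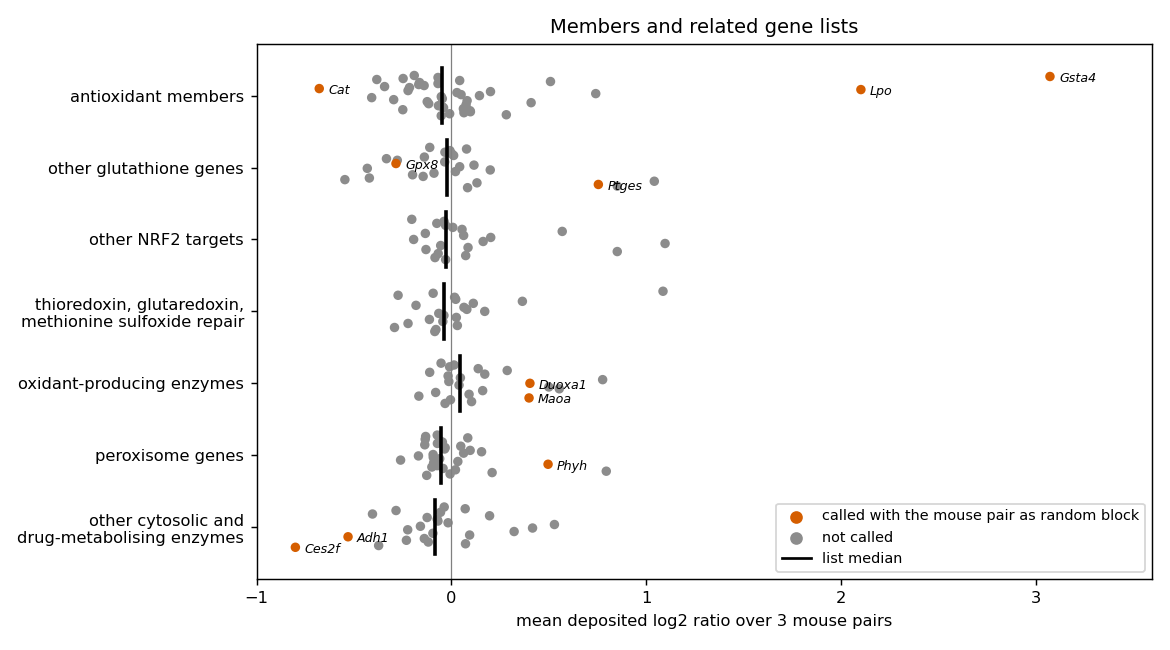
Mean log2 ratio over 3 mouse pairs (x axis) of the 41 members and of the genes in 6 related lists, with black bars at list medians. Orange points with names passed with the mouse pair as random block, and list medians lie between -0.08 and 0.05.

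Markers of other skin cells bear on the members that cells outside the epidermis also express. Macrophage and monocyte markers were positive in 11 of 12 genes, with list medians of -0.08, 0.50 and 0.74 in pairs 1, 2 and 3, beside pair values of -0.04, 1.29 and 0.98 for Gpx1 and -0.02, 0.79 and 0.76 for Gsto1. The part of these cells in either ratio was not tested, and 0 of 12 markers passed either fit. Over all rows, 10035 of 22879 means were positive and 12844 negative. Keratinocyte markers were divided, 6 positive and 4 negative, with Krt14 of the basal layer at 1.34 ± 0.54 and loricrin (Lor) of the cornified layer at -1.67 ± 0.45 (SD, n = 3 each). Hair follicle markers were negative in 11 of 12 genes, with Krt15 of the bulge at -1.36 ± 0.33, and skeletal muscle markers in 8 of 9, with Myl1 at -0.55 ± 0.30 (SD, n = 3 each). Of the blood cell markers, the neutrophil receptor gene Csf3r had 0.38 ± 0.12, and the macrophage genes Fcgr3 and Cd14 had 0.65 ± 0.62 and 0.36 ± 0.28 (SD, n = 3 each). The eosinophil ribonuclease gene Ear6 had 2.55 ± 0.88 (SD, n = 3) and stood apart from its list. There 6 of 7 genes had an absolute mean under 0.3, and Epx had -0.08. The globin genes Hba-a1 and Hbb-b1 had -0.07, -1.34 and -0.68 and -0.15, -1.53 and -0.40 in pairs 1, 2 and 3. Sebaceous gland, endothelial and fibroblast lists had medians of 0.07, 0.03 and -0.11, and eosinophil and melanocyte lists 0.06 and -0.31.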

How the data were processed

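Total RNA of skin was extracted with Qiagen and labelled with Ambion reagents, per the labels' protocols, and each array compared a LynDN with a WT mouse. The authors deposited 1 log ratio per probe and array, taken here as log2 because the values run from -6.34 to 6.16. Scanner, background correction and normalization are not given in the sources at hand, and spot intensities were not used, so dim or saturated spots could not be filtered. Array medians ran from -0.02 to 0.0014. The platform annotation gave 1 gene symbol to 21082 of 25344 probes, several to 30 and none to 4232. The symbol was left as it was for all 20456 whose Entrez identifier matched RefSeq's table. Values of 6 members carry at most 3 significant digits, fewer than most.

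Probes of one symbol were averaged per array. The 2 arrays of a dye swap, which hold the same 2 mice per the labels, were averaged, so a dye effect cancels. The 3 pair values of 22879 rows were set against 0 by limma 3.58.1 (R 4.3.3) using lmFit and eBayes. All rows entered the Benjamini-Hochberg adjustment, and the threshold was 0.05. This fit, and not the block fit, was tested on simulated data. The simulation gave a changed row the same shift in all 3 pairs, so it does not cover genes whose ratio differed in pair 1. SDs are over 3 pair values and leave out differences within a swap. The random block fit used 6 arrays, a dye term and duplicateCorrelation (consensus 0.151). It gives all rows 1 correlation within a pair, so for genes that vary mostly between pairs it counts swaps nearly as separate mice. Deviations from the orientation means correlated at 0.391, 0.182 and 0.126 within pairs 1, 2 and 3. The ratios themselves correlated at 0.024, 0.463 and 0.462 between the 2 arrays of these pairs. Alternatives were quantile normalization, median centring, probe handling, variance moderation and leaving out pairs or 1 array.

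Members, lists and tests were chosen with earlier results of these data known. Members with 1 sign on 6 arrays and an absolute mean of at least 0.3, the 10 with the largest mean, and Nfe2l2, Keap1, Cat and Gsr are given on every array. Of each related list and, in part, of the marker lists, up to 3 genes called by either fit are named, otherwise up to 2 with the smallest p. Other genes were named after their values were seen. Figures were drawn with matplotlib 3.10.9.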

Additional observations from a re-analysis of the deposited data

Results flagged for a closer look

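Ratios that differed with the dye orientation were singled out, since the 2 arrays of a swap hold the same RNAs. For Gpx1 the difference itself passed the limma test, at -0.91 (LynDN in Cy5 minus LynDN in Cy3; adjusted p = 0.0406), negative in 3 of 3 pairs. The call was lost without any one of the pairs, with quantile normalization and without variance moderation. For 4 more members all 3 arrays of one orientation lay on one side of 0 and all 3 of the other on the opposite side, and for these the difference did not pass the test. Txn2 and Prdx3, which encode mitochondrial proteins, had differences of 0.52 and 0.31, and the extracellular Sod3 had 0.28. Gstp1 ran the other way, with -0.51. Their mean ratios over pairs, from 0.03 for Sod3 to 0.08 for Prdx3, are therefore averages of opposite signs.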

How the results depend on the processing

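The number of calls depended on the treatment of pairs and variance. Against 4 rows, 0 members and 0 genes of related lists on the pair values, the replicate block gave 243, 3 and 7. Without the array of another labelled day the block gave 34, 1 and 1. Quantile normalization gave 72, 2 and 2, and without variance moderation 0 rows passed. Leaving out each replicate pair in turn gave 2 to 1117 rows, 0 to 7 members and 0 to 26 genes of related lists, the highest of each without pair 1. With 2 pairs left, the spread of a row rests on 1 degree of freedom and the moderation. The 131 rows called for dye orientation became 6 with quantile normalization, 0 without moderation, 451 with robust moderation and 7 to 49 without 1 of the pairs. Robust moderation added the members Hmox1 and Gsta4 to Gpx1. The cause was not tested. Median centring, the median over probes and probes as rows of their own left the members' count at 0 on the pair values. Quantile normalization, median centring and leaving out a pair or the array of another day can move the mean of a gene with 1 probe, and the 13 members given on every array had the same sign under each of these. Gpx1 ran from 0.47 without pair 2 to 1.13 without pair 1, and Gsto1 from 0.37 without pair 2 to 0.77 without pair 1. With arrays of 1 orientation alone, Gsr had -0.02 in Cy5 and Keap1 0.05 in Cy3, which turns the sign of their means. A filter on dim probes and signal over background were not possible on ratios alone.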

Other observations

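Some genes lay near 0 in pair 1 and far from it in both other pairs. With limits chosen after the values were seen (under 0.3 in pair 1, at least 0.7 on 1 side in pairs 2 and 3), this held for 11 of 185 members and genes of related lists, 10 of them positive, and for 0.835% of all rows. They joined Gpx1 and Gsto1 with Glrx, a glutaredoxin that removes glutathione from protein thiols, at 0.02, 1.65 and 1.59 in pairs 1, 2 and 3. Gpx1 met the limit in pair 1 as the average of arrays at -0.59 and 0.51. Hpgds, a glutathione-dependent synthase of prostaglandin D2, had 0.22, 1.55 and 1.36, and Slc7a11, which imports cystine for glutathione synthesis, had 0.23, 1.42 and 0.91. Rac2, a subunit of the phagocyte oxidase, had -0.17, 0.81 and 0.85, and Nudt7, a peroxisomal coenzyme A hydrolase, had 0.11, 1.23 and 1.05. On the negative side Lap3, an aminopeptidase, had -0.11, -0.83 and -0.70.

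Single arrays set the mean of some related genes. Ggt7 had -2.28 on 1 array, pair 2 with LynDN in Cy3, and from -0.28 to 0.22 on the others. Anpep had -2.26 on 1 array, pair 3 with LynDN in Cy5, and from -0.29 to 0.13 on the others.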
